A study of Drosophila melanogaster with 3 samples.

Results

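Alternative transcription start sites (TSSs) were found in 225 of 3795 genes with a spliced isoform in adult fly heads (5.93%, 95% Wilson interval 5.22 to 6.73%). Only the 595 genes with 2 or more multi-exon isoforms could qualify, and 37.8% of these did. Of 1556 multi-exon genes with 2 or more annotated starts, 220 (14.1%, 12.5 to 16.0%) had 2 or more here. The share is thus not a measure of how common alternative starts are in heads. The 225 genes were chosen by their deposited isoforms. The 5′ ends of the multi-exon isoforms of each gene were sorted, and ends 50 nt or less apart were joined into 1 start. Every gene with 2 or more starts was taken. The number of starts and their separation by more than 50 nt are therefore set by the choice and are given as a description. These genes had 617 isoforms and 478 starts, against 4700 multi-exon isoforms and 4048 starts in all genes. Of the 225 genes, 203 had 2 starts, 17 had 3, 4 had 4 and 1 had 5.

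The isoforms come from PacBio Iso-seq, in which one long consensus read is made from each full-length cDNA. The 3 libraries formed 1 group: heads of untreated adults of both sexes of w1118, a strain labelled wild type that carries a loss-of-function allele of the eye colour gene white, flash-frozen at an age of 3 days after growth at 25 °C. They were pooled before assembly into 1 file of exon coordinates on the dm6 build with no abundance, so no replicate error can be given, and intervals below cover only counting over genes or over pairs of starts. No other genotype or treatment belongs to these libraries, and all comparisons are between genes or between starts of the same gene. Heads hold several tissues, and isoforms were present for 3 of 5 marker genes of neurons, 6 of 6 of photoreceptors, 3 of 4 of glia, 3 of 3 of fat body and 3 of 3 of muscle, against 0 of 4 germline markers.

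A gene with several promoters can begin transcription at different places, each with its own core promoter and often its own first exon. Such first exons are spliced to a common body, so that the choice of start can change the 5′ untranslated region (5′ UTR), the N terminus of the protein, or only the control of transcription.

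The starts mostly sat on annotated positions. Of 611 isoforms of the 222 genes that the annotation contains, 595 (97.4%, 95.8 to 98.4%) began within 1 nt of an annotated 5′ end of their gene. The count was 3879 of 4060 isoforms of the other annotated genes (95.5%, 94.9 to 96.1%). According to the methods, the assembly kept only 5′ ends supported by a promoter database, so this match is not independent evidence for the positions. Whether the assembly moved ends to reference positions was not tested. Within a start the 5′ ends were identical in all 458 clusters of 2 or more isoforms, counted over all genes. No gene had ends between 1 and 50 nt apart, so the values just inside the limit were all 0 nt, and the first pair outside it lay 133 nt apart in cpx. Distances below are thus mostly distances between annotated promoters, and variation of the start within a promoter cannot be read from them. The annotation lists more starts for these genes than were found here. By the same joining rule it holds 794 starts for the 222 genes it contains, of which 466 (58.7%, 55.2 to 62.1%) were found. Every annotated start was found in 73 genes, among them Act5C and Mvl with 2 of 2, whereas the supervillin gene Svil had 4 of 16. The other annotated starts are not shown to be unused, and the part that depth, tissue and the promoter filter of the assembly have in their absence was not tested.

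Act5C, a cytoplasmic actin gene on chromosome X, shows the most common arrangement. One isoform began at 5900862 and the other at 5901983, 1121 nt further on. Their first exons of 152 and 114 nt do not overlap, and both were spliced to the same acceptor of exon 2 at 5902690. The annotated start codon lies behind this acceptor, so that both isoforms encode the same 376 residues behind 5′ UTRs of 161 nt from the upstream start and 123 nt from the downstream start. The gene ttk, which encodes a zinc-finger repressor, had the same layout on chromosome 3R over a larger distance. Its starts at 31713868 and 31724997 lie 11129 nt apart, the first exons measured 402 and 335 nt, and both led to exon 2 and to the same start codon, with 643 residues. The metal transporter gene Mvl had the second smallest distance of all pairs, 147 nt between 21060800 and 21060653 on the minus strand of chromosome 3R. Even so its first exons of 56 and 372 nt were separate, the downstream one lay wholly inside the first intron of the upstream isoform, and both were joined to the same exon 2 and share an annotated start codon.

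The study activated the nervous-system starts of Mvl and ttk, and expression of the linked 3′ end rose. The isoforms of each of these genes here have only 1 3′ end, so such a link cannot be read from them. Activation of single starts was measured by RT-qPCR. The primer list of the study gives Mvl and ttk a pair for the induced start and a different pair for the other start. These primers, written 5′ to 3′ in lower case, are shown because they are the sequences by which the study addressed single starts of both genes. They could not be placed on the genome here, so that no primer is assigned to a first exon described above.
Mvl induced start, forward: gccgaaatctggcaacactc
Mvl induced start, reverse: cgcgtgggctcagagttaaa
Mvl other start, forward: aactaattggagccctcgcc
Mvl other start, reverse: aattgctccgcgagaaaagc
ttk induced start, forward: ggttgccaattacgtgtaacca
ttk induced start, reverse: gaaggcttgcaacactcgaa
ttk other start, forward: tctcgcgctgagttgtgaaa
ttk other start, reverse: atttcgcctgcttcctttgc

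**Figure D1:**
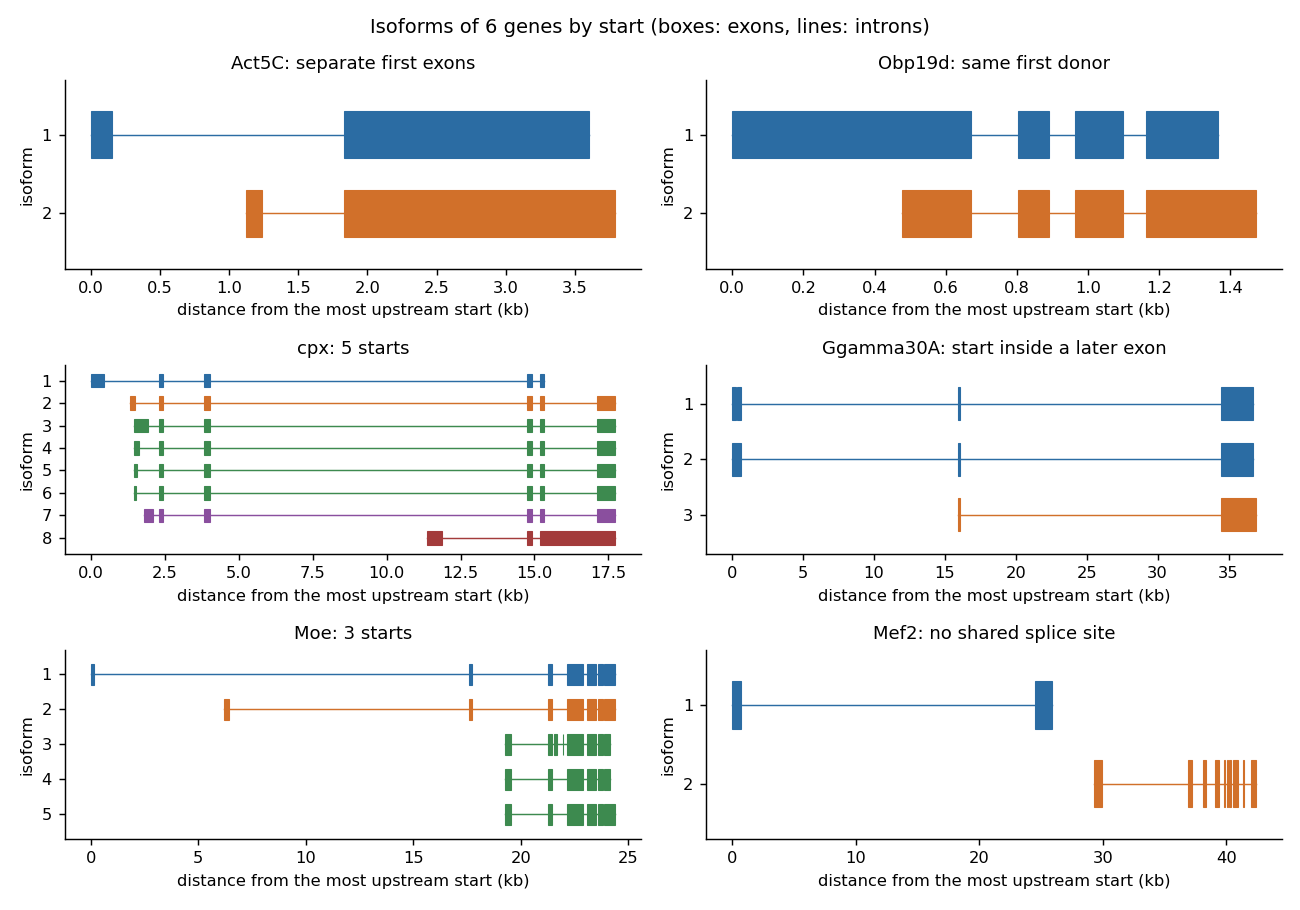
Isoforms of Act5C, Obp19d, cpx, Ggamma30A, Moe and Mef2, drawn against the distance from the most upstream start of the gene in kb, with exons as boxes, introns as lines and 1 colour for each start. The Act5C isoforms differ in separate first exons and join at exon 2, the Obp19d isoforms share the donor of their first exon, and the Mef2 isoforms share no splice site.

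The 5 genes with 4 or more starts differed in how far these were spread, over 2440 nt in SERCA, 11353 nt in cpx and more than that in shot, Lmpt and Svil. The complexin gene cpx, whose product regulates the fusion of synaptic vesicles, had 5 starts on chromosome 3R, at 4280386, 4281706, 4281839, 4282165 and 4291739. The first 4 joined their neighbours at exon 2, while the fifth lay 9574 nt further on and joined at its own exon 2, which is exon 4 of isoforms from the fourth start. The third start led to 4 isoforms that differ in the donor of the first exon, which was 476, 165, 92 or 77 nt long. By matched annotated transcripts, the fourth start gave a protein of 142 residues and the fifth 1 of 98. SERCA, which encodes the calcium pump of the endoplasmic reticulum, had 4 starts within 2440 nt on chromosome 2R, at 23935884, 23935680, 23933740 and 23933444. Their first exons were separate, with 50 nt the shortest and 186 nt the longest, and neighbouring starts joined at the acceptor of exon 2. In shot, which encodes a spectraplakin that links actin and microtubules, 4 starts were spread over 44409 nt. In Lmpt, which encodes a LIM-domain protein, 4 starts were spread over 50960 nt, and in Svil, an actin-binding protein gene, over 65628 nt. These last 3 genes differ from cpx and SERCA in that each has neighbouring starts whose isoforms share no splice site.

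Among the 17 genes with 3 starts, Moe, Desat1 and Hsc70-3 show how the starts of 1 gene can differ in what they change. Moe encodes moesin, which ties the actin cortex to the membrane, and its starts on chromosome X lay at 8898000, 8891807 and 8878725. The first and the second were 6193 nt apart, shared exon 2 and the same start codon, and encode 575 residues. The third, another 13082 nt on, joined the second at exon 3 of its isoform, began translation at a start codon of its own and encodes 646 residues in the matched isoform. For Desat1, a fatty acid desaturase gene, the 3 starts at 12439601, 12441428 and 12444042 on chromosome 3R all led to the same 383 residues, with 5′ UTRs of 122, 192 and 107 nt. The same held for Hsc70-3, which encodes the Hsp70 chaperone of the endoplasmic reticulum, with 656 residues from each of 3 starts and 5′ UTRs of 270, 131 and 97 nt. Others with 3 starts were lola and bun, both genes of transcription regulators, EcR, the ecdysone receptor gene, AMPdeam (AMP deaminase), the ankyrin gene Ank2 and the kinase gene par-1. In lola and Ank2 only 2 annotated starts were found among these 3. The third start of Ank2 lay 17993 nt from the nearest annotated 5′ end of the gene.

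Neighbouring starts lay far apart. Over 253 pairs of adjacent starts, the distance had a median of 3047 nt with quartiles of 1121 and 8997 nt, and it ran from 133 nt in cpx to 99518 nt in klar, a gene of nuclear positioning. No pair was closer than 100 nt (0 of 253). There were 24 pairs from 100 to under 500 nt, 32 from there to under 1000 nt, 98 from there to under 5000 nt, 42 from there to under 10000 nt and 57, or 22.5% (17.8 to 28.1%), at 10000 nt or more. The closest pairs were those of cpx (133 nt), Mvl (147 nt), SERCA (204 and 296 nt), snu (241 nt), CG17549 (276 nt) and the serpin gene Spn42Da (286 nt). After klar, the most distant starts were those of the RNA-binding protein genes Rbp6 (90243 nt) and bru1 (85897 nt), of CG44837 (75425 nt) and of pyd (67548 nt), which encodes a junction scaffold protein. Glut4EF (54236 nt) and RapGAP1 (46033 nt), a GTPase-activating protein gene, followed.

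**Figure D2:**
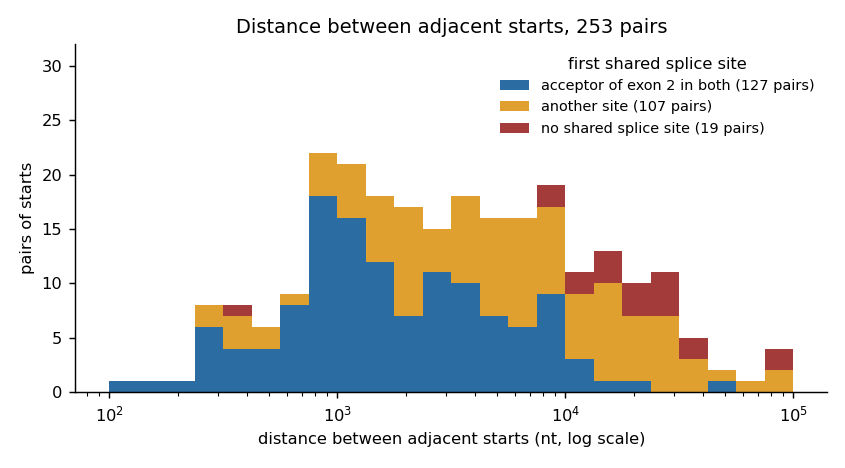
Distance between adjacent starts in nt on a log scale, as the number of pairs per class of distance, with colours for the first splice site that isoforms of both starts share. Pairs that join at the acceptor of exon 2 of both (127) make up most of the short distances, and 16 of the 19 pairs without a shared site lie at 10000 nt or more.

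Separate genes can lie inside such distances. In 21 of 253 pairs (8.30%, 5.49 to 12.4%) at least 1 other protein-coding gene was annotated wholly between both starts. At mod(mdg4), a chromatin protein gene known for trans-splicing, the 15 genes in between are its own 3′ units, annotated as genes. The annotation holds only 1 start for mod(mdg4), against 2 found here. In the other 20 pairs 33 genes lay between the starts, 12 of them on the same strand. The largest number was 7, between the starts of CG44837. There were 3 between the starts of klar and 3 between the last 2 starts of Svil. 1 gene, CG31759, lay between the starts of bru1.

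First exons of neighbouring starts rarely overlapped. In 238 of 253 pairs, or 94.1% (90.4 to 96.4%), they were separate, and the downstream first exon began outside every exon of the upstream isoforms. In 200 of these 238 pairs (84.0%, 78.8 to 88.1%) the downstream first exon lay wholly in an intron of the upstream isoform, which was its first intron in 133 pairs, its second in 34 and a later one in 33. In 24 pairs the downstream first exon began in an intron and ran into a later exon of the upstream isoform, as in Gs2, a glutamine synthetase gene, and in Galphaq, the G protein gene of phototransduction. In 14 pairs it lay beyond the 3′ end of every upstream isoform.

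The remaining 15 pairs had overlapping structures. A downstream start inside a later exon of the upstream isoform was found in 7 pairs (2.77%, 1.35 to 5.60%). In the G protein subunit gene Ggamma30A, the starts at 9256564 and 9272503 on chromosome 2L lay 15939 nt apart, with the second in an exon that the first isoforms splice in. The upstream start codon lies just before this second start, so that the isoforms encode 72 residues from the upstream start and 64 from the downstream start. In Gel, the gelsolin gene, the second start lay 1571 nt downstream, inside an exon of 1 upstream isoform. That isoform encodes 798 residues, whereas the other upstream isoform and the downstream isoform both encode 740. The kinase gene par-1 and Slob, a potassium channel regulator gene, had the most isoforms in this class, with 4 each. Overlapping first exons with different donors occurred in 4 pairs, at distances of 133 to 1216 nt, of which 2 were in cpx, 1 in CG13077 and 1 in the fumarase gene Fum1. The same first donor was used in 4 pairs, at 241 to 1168 nt. These were in snu, Obp19d, Myd88 and CG10433. A later splice site also differed in CG10433, and in each of these genes the upstream start lengthens the first exon. In Obp19d, an odorant-binding protein gene on chromosome X, it measured 672 nt from the upstream start and 195 nt from the downstream start, and both lead to 1 start codon and the same 150 residues.

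The second exon of both isoforms was the most frequent place of merging. The first splice site shared by isoforms of both starts was the acceptor of exon 2 in both in 127 of 253 pairs (50.2%, 44.1 to 56.3%). In 55 pairs (21.7%, 17.1 to 27.2%) it was the acceptor of exon 2 of the downstream isoform and of a later exon of the upstream isoform, so that only the upstream start adds exons of its own beyond the first. The reverse, with the second exon of the upstream isoform and a later exon of the downstream isoform, occurred in 12 pairs (4.74%, 2.73 to 8.11%), among them CLIP-190, a microtubule-binding protein gene, and SPoCk, which encodes a calcium pump. In 19 pairs the first common site was the donor of the downstream first exon, in 4 the first donor of both, and in 17 another site.

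These classes differed in distance. Pairs that joined at exon 2 of both had a median distance of 1446 nt with quartiles of 868 and 3746.5 nt, and those in which the upstream isoform had further exons before the junction had a median of 9187 nt with quartiles of 3779 and 18102.5 nt. A distant start can have room for more exons, so the relation is partly built in. The largest number of exons before the junction was in Mbs, a myosin phosphatase subunit gene, where exon 15 of the upstream isoform met exon 4 of the downstream isoform over 21407 nt. In mtd and spir it was exon 10 against exon 2. These 3 were chosen after their values were seen. An upstream start contributed a median of 405 spliced nt before the shared site (quartiles 199 and 765.25 nt), and a downstream start contributed 266.5 nt (quartiles 154.75 and 476.75 nt), over 234 pairs with a shared site.

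**Figure D3:**
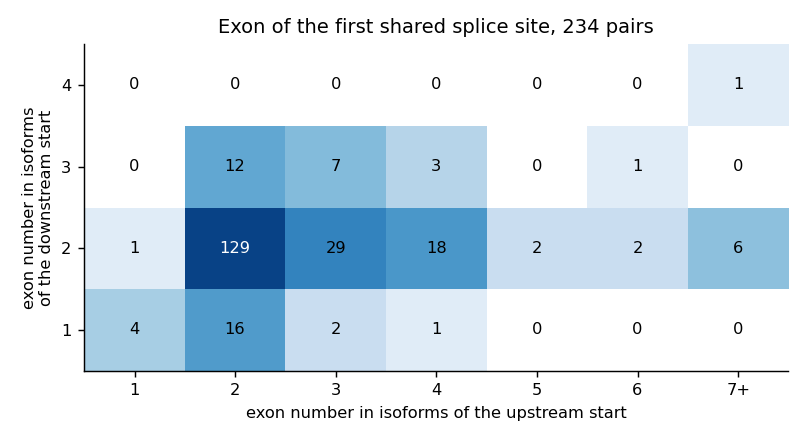
Exon number of the first shared splice site in isoforms of the upstream start (horizontal axis, with exon 7 and later in 1 column) and of the downstream start (vertical axis), as the number of pairs in each field, shaded on a log scale, over 234 pairs. The field of exon 2 in both holds 129 pairs, of which 127 join at its acceptor, and fields to its right hold more pairs than those above it.

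Behind the shared site the isoforms were mostly alike. In 180 of 234 pairs (76.9%, 71.1 to 81.9%) an isoform of each start had the same splice sites from the first shared site to the nearer 3′ end, as in Act5C, ttk, Mvl, Moe and Desat1. In the other 54 pairs, among them norpA, the phospholipase C gene of phototransduction, sm, an RNA-binding protein gene, and the last pair of cpx, at least 1 later splice site also differed. The 3′ ends, joined at 150 nt, were the same set for both starts in 133 pairs (52.6%, 46.4 to 58.6%), partly shared in 27 and not shared in 93 (36.8%, 31.1 to 42.9%). Pairs without a shared splice site are counted here too. In 152 of the 225 genes (67.6%) every start had only 1 isoform, so that partial sharing could not occur. The part of isoform number in these counts was not tested. Among the 234 pairs with a shared splice site, the farthest 3′ end was common to both starts in 146 pairs. It belonged to the upstream start alone in 41 pairs (17.5%, 13.2 to 22.9%). In 47 pairs (20.1%, 15.5 to 25.7%) it belonged to the downstream start alone. The intervals overlap, but both are shares of the same pairs, and their difference was not tested. The farthest end of csw, a tyrosine phosphatase gene, came from the upstream start, and that of Act5C from the downstream start. Act5C had only 1 isoform for each start here, ending at 5904464 and 5904652. The study shows this gene as an example in which neither start is favoured at a given 3′ end.

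The effect on the protein was read from annotated transcripts with the same splice chain and a 5′ end within 1 nt. Such a coding transcript was found for both starts in 136 of 253 pairs (53.8%, 47.6 to 59.8%), and the other pairs were left out. A pair was counted as sharing a start codon if any matched isoform of each start had it in common, even where other isoforms differ. In 57 of the 136 pairs (41.9%, 33.95 to 50.3%) isoforms of both starts share a start codon by this rule, and in 79 (58.1%, 49.7 to 66.0%) they do not. Where a start codon is shared, the 5′ UTR had a median of 306 nt from the upstream start and 295 nt from the downstream start. The upstream start gave the longer one in 30 of 57 pairs (52.6%, 39.9 to 65.0%), an interval that includes equal shares for both positions. The differences reached 607 nt more from the upstream start in Nlg2, a neuroligin gene, and 750 nt more from the downstream start in HisT. Both were chosen after their values were seen.

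Where the start codons differ, both usually lie in the part that is particular to each start. This was so in 59 of 79 pairs (74.7%, 64.1 to 83.0%). The upstream start then added a median of 61.3 residues of its own (quartiles 14.3 and 142 residues) and the downstream start 34 (quartiles 13.2 and 76 residues) before the common part. In 14 pairs only the upstream isoform began translation before the shared site, in 5 only the downstream one, and in 1 pair, of vir-1, no site was shared. For csw, the upstream start encodes 841 residues and the downstream start 682 in the matched isoforms. Fum1, the fumarase of the citric acid cycle, has 495 residues from the upstream start and 467 from the downstream start. The largest own part was in mtd, with 674 residues of the first start, which was chosen after its values were seen. In RpL35 and eIF4A the start codons differ in position, and the encoded proteins have the same length. RpL35, which encodes a ribosomal protein, has 3 coding nt in each first exon before the shared site, the length of the start codon itself, and 123 residues from either start. The translation factor gene eIF4A, chosen after its values were seen, has 2 coding nt in each first exon and 403 residues from either start.

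Start codon and structure went together. Of matched pairs that join at exon 2 of both, 51 of 87 (58.6%, 48.1 to 68.4%) share a start codon. Of those in which the upstream isoform adds further exons, 2 of 27 do (7.41%, 2.06 to 23.4%). Pairs with a common start codon lay a median of 1341 nt apart and those with different ones 3691 nt. Since a longer own part leaves more room for a start codon, this too is partly built in.

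**Figure D4:**
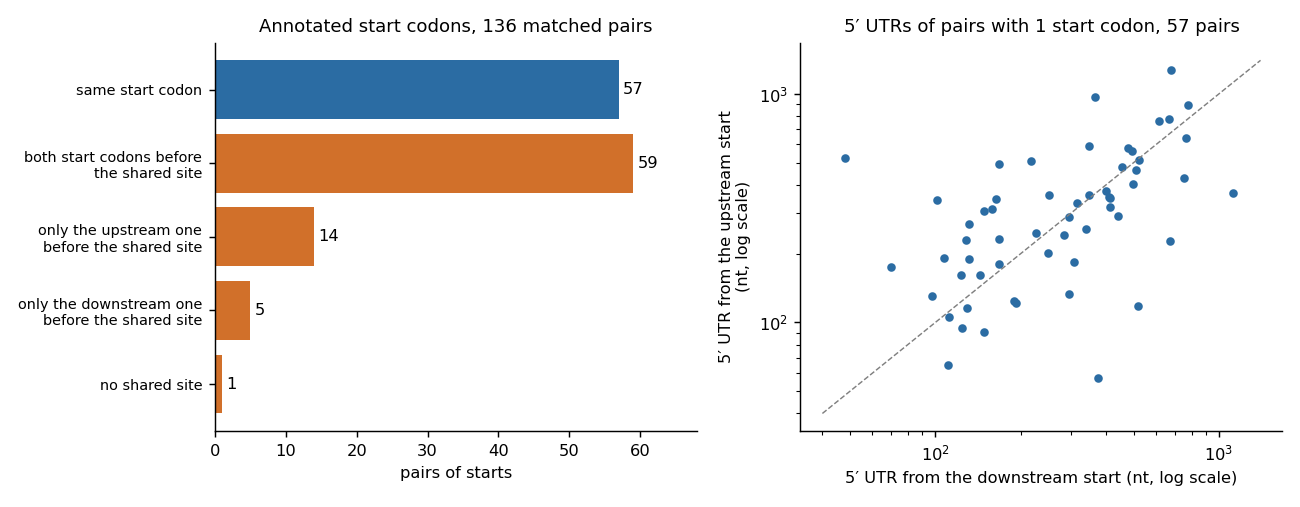
Left, the number of pairs of starts by the position of their annotated start codons, over 136 matched pairs. Right, the length of the 5′ UTR in nt from the upstream start (vertical) and from the downstream start (horizontal), both on log scales, for the 57 pairs with a common start codon, with a dashed line of equal length; points lie on both sides of it, 30 of them above.

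In 19 pairs (7.51%, 4.86 to 11.4%) isoforms of neighbouring starts shared no splice site at all. In 14 of them the downstream start lay beyond the 3′ end of every upstream isoform. These were in Ank2, EcR, hwt, Ih, klar, Lmpt, Mef2, Msp300, Rbp6, shot, Shrm, Svil, vir-1 and a gene known only as FBgn0266526. In Mef2, a muscle transcription factor gene on chromosome 2R, the upstream isoform had 2 exons and ran from 9958858 to 9932998, and the downstream isoform had 10 exons and ran from 9929615 to 9916448. Likewise the upstream isoform of Ih, a channel gene, ended at 14279437, ahead of the second start at 14289540. In klar, the isoform from 540614 ended at 451571 and the next began at 441096. The other 5 pairs, of cindr, Doa, Hsl, Lmpt and mod(mdg4), overlapped without a common site. For Hsl, the hormone-sensitive lipase gene, the starts were only 343 nt apart.

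Ends of these isoforms were compared with annotated ends, leaving out genes that the annotation does not contain. An isoform of the upstream start ended within 150 nt of an annotated 3′ end in 6 of 18 pairs without a shared site (33.3%, 16.3 to 56.3%), against 178 of 232 pairs with a shared site (76.7%, 70.9 to 81.7%). For the downstream start the counts were 12 of 18 and 184 of 232. The part that early or internally primed 3′ ends have in these pairs was not tested.

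Gene lists gave different shares of genes with several starts, against 5.93% of all multi-exon genes. These shares are over all list genes with a multi-exon isoform. The lists were written with earlier results of these data known, so these shares and those of the next paragraph are a description only. Regulators of transcription had them in 9 of 20 genes found (45%, 25.8 to 65.8%), namely mod(mdg4), lola, EcR, bun, sima, tim, Mef2, cnc and ttk. RNA-binding protein genes had them in 9 of 21 (42.9%, 24.5 to 63.5%), led by Hrb98DE and sm with 6 isoforms each, mub and AGO1. Cytoskeleton and muscle genes had them in 10 of 29 (34.5%, 19.9 to 52.7%), among them CLIP-190, Moe, Svil and shot. For genes of metabolism and transport the count was 6 of 23, including Gs2, the aldolase gene Ald1, the trehalase gene Treh and the acetyl-CoA carboxylase gene ACC. For ion channels and pumps it was 4 of 17 (Atpalpha, SERCA, SPoCk and Ih), and for kinases and phosphatases 4 of 18 (par-1, Pka-R1, csw and Pdk1).

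For the synaptic, photoreceptor, ribosomal protein, vacuolar ATPase and core promoter lists the intervals included the 5.93% of all multi-exon genes. Synaptic vesicle and active zone genes had several starts in 2 of 18 genes (11.1%, 3.10 to 32.8%), cpx and VGlut, which encodes the vesicular glutamate transporter. Photoreceptor genes had them in 2 of 20 (10%, 2.79 to 30.1%), Galphaq and norpA. Of 53 cytosolic ribosomal protein genes only RpL35 did (1.89%, 0.334 to 9.94%), and 0 of 15 subunit genes of the vacuolar ATPase (Wilson interval up to 20.4%) and 0 of 10 genes of core promoter factors (up to 27.8%) did. A list of genes taken from the study, which does not hold every gene it names, had 11 genes found, of which Act5C, Mvl, csw and ttk had several starts (36.4%, 15.2 to 64.6%). The study picked these genes, and they are not independent evidence. The lists also differed in isoform number. Genes with 2 or more multi-exon isoforms were 11 of 20 transcription regulators, 15 of 21 RNA-binding protein genes and 11 of 18 kinases and phosphatases. They were 10 of 17 channels and pumps, 9 of 18 synaptic genes, 5 of 53 ribosomal protein genes and 1 of 10 core promoter genes. Among such genes, several starts occurred in 9 of 11 transcription regulators, 9 of 15 RNA-binding protein genes and 10 of 13 cytoskeleton and muscle genes. They occurred in 6 of 11 metabolism, 4 of 10 channel, 4 of 11 kinase, 2 of 9 synaptic and 2 of 6 photoreceptor genes. The counts were 1 of 5 for ribosomal protein, 0 of 3 for vacuolar ATPase and 0 of 1 for core promoter genes. Over all genes with 2 or more multi-exon isoforms the share was 37.8%. The part of isoform number in these shares was not tested.

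Genes with several starts were long. Their annotated span had a median of 12569 nt (quartiles 6618 and 26162 nt, 222 genes), against 7144 nt (3754 and 17693 nt, 369 genes) for genes with 1 start and 2 or more multi-exon isoforms. Among genes with exactly 2 isoforms the medians were 10368 nt in 137 genes with 2 starts and 6730 nt in 281 genes with 1 start. Distant starts lengthen a gene by themselves, so that part of this difference is built in. Coding length and exon number differed less, but alternative starts can add to these as well. The longest annotated coding sequence had a median of 2022 nt (quartiles 1305 and 3107 nt) against 1719 nt (1141 and 2662 nt), and the isoform with most exons had a median of 6 exons against 7. The median number of 3′ ends was 1 in both groups. On chromosome X there were 27 of the 225 genes (12%, 8.38 to 16.9%), against 70 of 370 genes with 1 start and 2 or more multi-exon isoforms (18.9%, 15.3 to 23.2%). These intervals overlap, as do those for each of the arms 2L, 2R, 3L and 3R. Overlap does not show that the shares are equal, and their differences were not tested.

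Long first introns went with the upstream start. They had a median of 2168 nt from upstream starts (quartiles 1004 and 5991 nt), 1117 nt from downstream starts (271 and 2959 nt) and 690 nt in genes with 1 start and 2 or more multi-exon isoforms (201.5 and 2178.5 nt). An upstream first intron often contains the next first exon, which lengthens it by construction. First exons differed little, with medians of 236 nt from upstream starts, 227 nt from downstream starts and 244 nt in genes with 1 start.

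**Figure D5:**
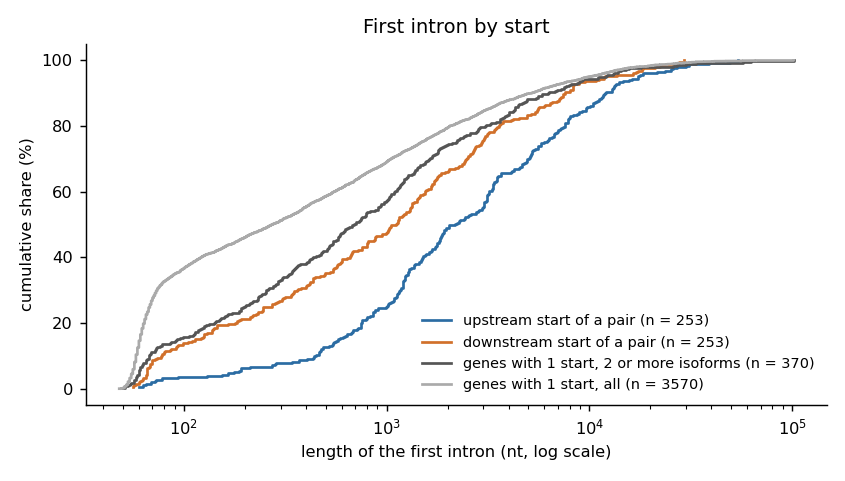
Cumulative share of first introns by length in nt on a log scale, for upstream and downstream starts of the 253 pairs and for genes with 1 start, either those with 2 or more multi-exon isoforms (370) or all (3570). The curve of upstream starts lies furthest to the right, with a median of 2168 nt.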

How the data were processed

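PacBio Iso-seq was run on heads of 3-day-old w1118 flies (0.5 µg RNA, 14 PCR cycles, selection above 3 kb, 3 SMRT cells). According to the methods, the authors merged the replicates and mapped their consensus reads on dm6 by STARlong. FLAIR then corrected splice junctions with short reads and collapsed isoforms, keeping 5′ ends supported by a promoter database, up to 5 ends per splice chain and at least 2 full-length reads per isoform. Ends that a database supports favour known promoters. The deposited values have other units than expression: exon starts and ends in nt, with no abundance. The number of reads in each library is not analysed here.

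Here, 5′ ends were joined at 50 nt and 3′ ends at 150 nt. A start was placed at its most frequent 5′ end. Over isoforms of adjacent starts, the most overlapping relation of first exons and the most upstream shared splice site were taken. Coding sequences, gene spans and names came from Ensembl release 115 (BDGP6.54, the assembly of dm6); 3 genes are not in it. Left ends lie 1 nt inside annotated ones, so ends within 1 nt were called equal. Coordinates and exon lengths are those of the file, 5′ UTR and coding lengths those of the annotation, and coding nt before a shared site were corrected for that 1 nt. Intervals are 95% Wilson intervals, and quartiles are the 25th and 75th percentiles. Clustering and classification were tested on simulated data. Alternatives were other joining distances, isoform filters, pairs and genes for comparison. Core promoter motifs and open reading frames were not analysed, since no genome sequence was used. The genes and lists were chosen with earlier results of these data known. Genes were named by rule: 4 or more starts; most isoforms among those with 3 starts, in each first-exon class and list; smallest and largest distances; no shared splice site; and those on a list of genes named in the study. Python 3.11.15, numpy 2.4.6, scipy 1.17.1 and matplotlib 3.10.9 were used.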

Additional observations from a re-analysis of the deposited data

Results flagged for a closer look

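Outside the multi-exon isoforms, single-exon isoforms with a gene identifier began more than 50 nt from every multi-exon start in 2 genes, CG18135 and Pisd. For CG18135, which already has 2 starts, the distance to the nearest multi-exon start was 2993 nt. For Pisd, which has 1, it was 899 nt. Both were singled out because they come from isoforms that the choice of genes did not use. Their strand was taken from the gene.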

How the results depend on the processing

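The number of genes stayed between 206 and 226 under every alternative run, with 225 for joining distances of 10, 25 and 100 nt and for starts at most 50 nt wide. These settings could not change any value. The 5′ ends within a start were all identical, and no adjacent starts lay closer than 133 nt. The number of genes was 224 at 150 nt, 206 at 500 nt and 226 with single-exon isoforms. It was 218 with only isoforms near an annotated 5′ end and 222 with only isoforms that share a splice site with an annotated transcript of the gene. The median distance stayed between 2903 and 3803 nt, and the share of pairs joining at exon 2 of both between 45.8 and 50.8%. Separate first exons made up 94.0 to 96.5% of pairs. They moved outside their interval only at a joining distance of 500 nt, to 96.5%, since close pairs are then merged. With any number of isoforms, genes with 1 start had a median annotated span of 3590 nt in place of 7144 nt. Most of these genes have 1 isoform, and the part of isoform number in this difference was not tested. Matching annotated transcripts by splice chain alone, an alternative chosen after seeing the data, gave a common start codon in 43.7% of 151 pairs. The planned reading of open reading frames from the genome and wider motif windows were not run, as no genome sequence was used. No paired analysis was possible because the 3 libraries form 1 group and were pooled, and no library could be left out. Of the annotated starts of these genes 41.3% were not found, and read depth was neither measured nor varied.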
